A study of Mus musculus with 12 samples.

Results

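H3K4me3 regions of the embryonic mouse intestine that have no called counterpart in adult epithelium are described here. The study profiled this mark by ChIP-seq (sequencing of DNA bound to immunoprecipitated histone) in small-intestinal epithelium, with 2 libraries in each of 4 groups, all from mice of mixed C57BL/6 CD1 background. The groups were embryonic epithelium at E12.5 and at E14.5, sorted as EpCAM-positive cells negative for CD31 and CD45, and, from P60 Lgr5EGFP-Cre-ERT males, Lgr5-EGFP-high stem cells (ISC) and enterocytes. In these males EGFP marks cells that use the Lgr5 promoter. The embryos' genotype and any pooling of animals are not given in the submitters' descriptions, and both libraries of each group are described there as biological duplicates. No gene annotation of the build of the lists (mm9) was used, so the labelled cell types were not checked against marker genes and regions are given by mm9 position.

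The peaks of the 8 lists were joined into 24352 regions wherever they overlapped or touched, of which 23602 lay on autosomes. A region was taken as embryo-only if it had a peak in E12.5 replicates 1 and 2 and in E14.5 replicates 1 and 2 and in none of the 4 adult lists. This left 339 regions. They were 3.31% of the 10242 autosomal regions called in all 4 embryonic libraries. The regions were thus selected on the authors' peak calls in all 8 libraries, and presence in the embryo and absence from the adult lists are a description with no test.

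H3K4me3 is trimethylation of lysine K4 on the tail of histone H3 and is laid down by SET1 and MLL complexes, mostly at CpG-rich promoters. It is found at promoters in use, and, together with H3K27me3, at promoters of silent developmental regulators that are held poised. The width of an H3K4me3 domain varies between promoters, and long domains have been linked to genes of cell identity. Between the 2 embryonic stages studied here the gut epithelium goes from a pseudostratified tube towards the first villi, and Lgr5-positive crypt stem cells and mature enterocytes form later.

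Sequenced depth ranged from 12821255 tags in enterocyte replicate 1 to 43259380 in E14.5 replicate 1, and was 15053166 and 22696869 at E12.5. The lists held from 11111 peaks (E12.5 replicate 1) to 17658 (E14.5 replicate 2). The lists give no reads per region, so absence from an adult list means that the authors' caller reported no peak at that depth.

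Embryo-only regions were short and low in the ranking of every list. The length under peaks (covered length) at E12.5 ran from 190 to 3328 bp in replicate 1, with a median of 526 bp, and from 159 to 3534 bp in replicate 2, with a median of 750 bp. At E14.5 it ran from 326 to 3713 bp (median 1036 bp) in replicate 1 and from 221 to 3651 bp (median 1047 bp) in replicate 2. The other 9903 regions called in all 4 embryonic libraries had medians of 941, 1121, 1658 and 1701 bp in the same order. Regions with few adult calls were nearly as short as the embryo-only ones. The median of the mean covered length was 866.5 bp with 0 adult calls and 904.88 bp with 1. It was 993.75 bp with 2, 1065 bp with 3 and 1414.75 bp with 4. Ranked by width within its list, from the shortest peak up, the median embryo-only peak stood at percentile 21.7 and 40.0 at E12.5 and 38.6 and 42.0 at E14.5. The other regions stood at 53.1, 61.6, 66.9 and 69.4. Of the 339 regions, 168 were below the list's median width in all 4 libraries and 58 were above it in all 4. In 333 regions every embryonic library had a single peak.

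**Figure D1:**
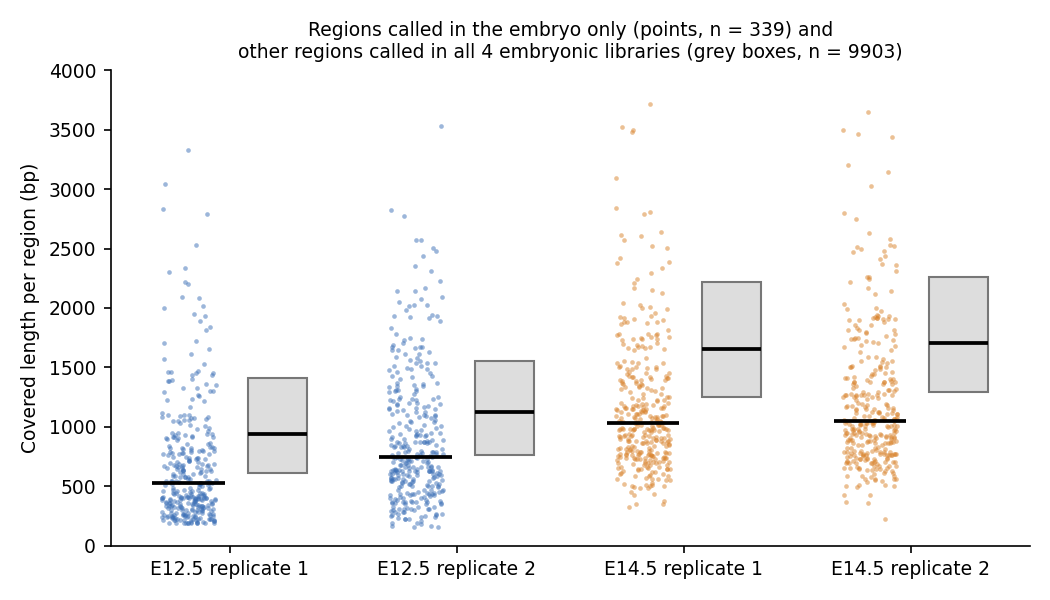
Covered length in bp (vertical axis) of the 339 embryo-only regions in each embryonic library (points, with a black line at the median), beside the other 9903 regions called in all 4 embryonic libraries (grey boxes from the lower to the upper quartile, with a black line at the median). The medians of the points, 526, 750, 1036 and 1047 bp, lie below the grey medians of 941, 1121, 1658 and 1701 bp.

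The share of embryo-only regions was lower among wide regions. When the 10242 regions called in all 4 embryonic libraries were ordered by mean covered length and cut into 10 bins of near equal size, 137 of the 1025 shortest (13.4%) were in no adult list. The share was 5.07% in the next bin and 4.20% in the one after it. From the fourth to the ninth bin it lay between 1.37% and 2.05%. In the widest bin, from 2419.25 to 10158 bp, it was 0.488% (5 of 1025). These shares follow from the rule and are a description. A wide domain in the embryo was thus rarely without any adult peak.

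**Figure D2:**
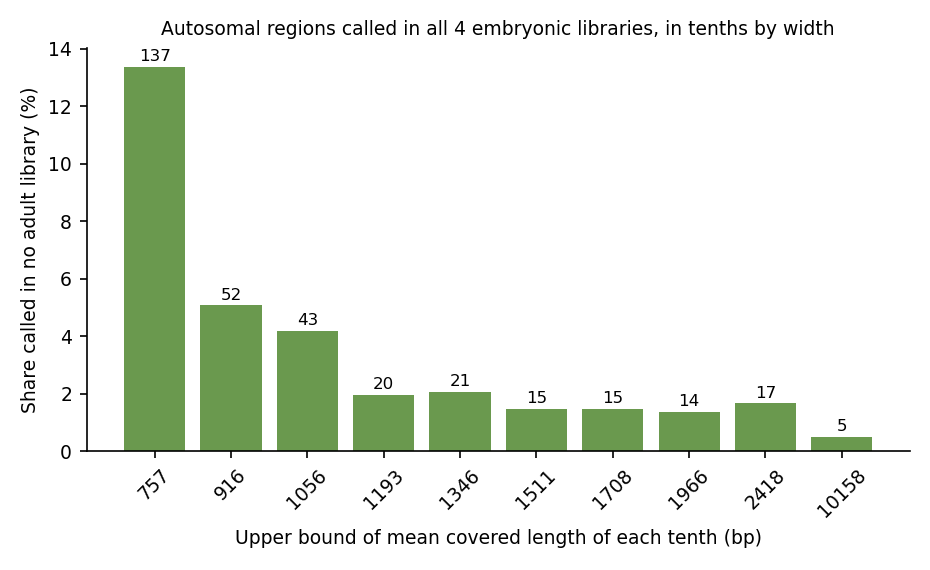
Share, in percent, of autosomal regions called in all 4 embryonic libraries that were called in no adult library (bars from 0), by bin of mean covered length, with the number of embryo-only regions above each bar. The shortest bin, up to 757.75 bp, holds 137 of the 339 regions, and the widest holds 5.

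Within bins of mean covered length, embryo-only regions ranked lower in strength. The strength used here is the authors' −log10 q of the peak against the input, ranked within its own list. Of the 21 embryo-only regions with a mean covered length of 2000 bp or more, the median peak stood at percentile 90.5 and 92.7 of width at E12.5, but at percentile 30.3 and 50.0 of −log10 q. The 1925 other regions of that bin stood at 90.9 and 92.5 of width and at 67.8 and 73.6 of −log10 q. At E14.5 the embryo-only regions of that bin stood at 47.4 and 51.2 of −log10 q, and the others at 78.7 and 80.1. Their width percentiles there were 90.0 and 89.7 against 93.6 and 94.1, so width was only roughly matched. The order of strength was the same in each of the 5 bins and in each of the 4 libraries. The set was selected on peak calls, so these ranks are a description. In the bin from 600 to 1000 bp, which holds 147 embryo-only regions, the median percentile was 12.9 and 27.8 at E12.5 against 37.7 and 48.7 for the 2114 others. Median fold enrichment over the input in that bin was 3.52 and 3.91 at E12.5 against 4.14 and 4.95, and 5.20 and 6.93 at E14.5 against 8.43 and 11.5.

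**Figure D3:**
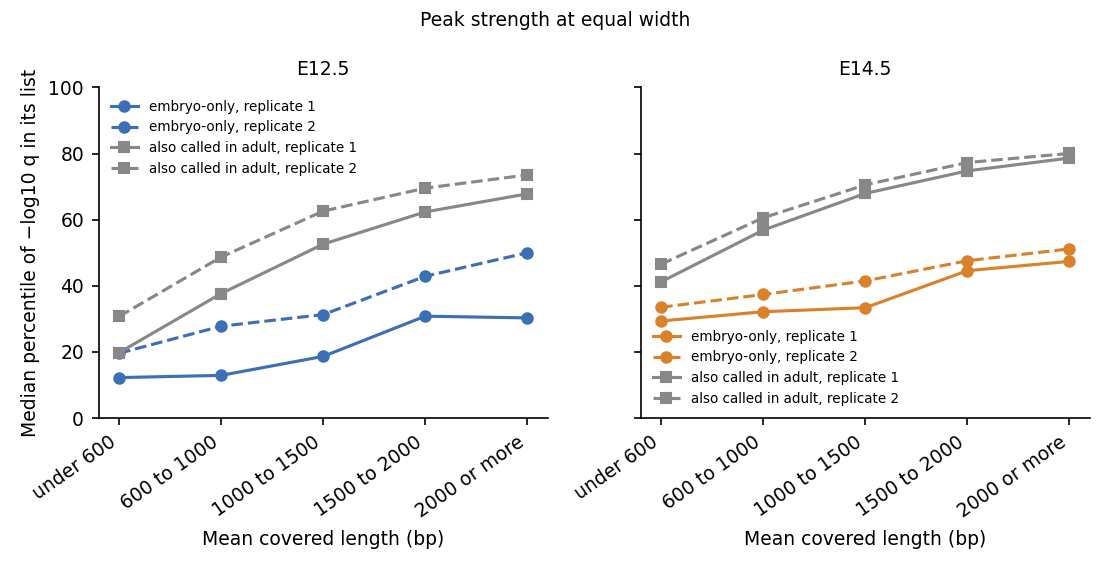
Median within-list percentile of the authors' −log10 q (vertical axis) in 5 bins of mean covered length in bp, for embryo-only regions (coloured circles) and the other regions called in all 4 embryonic libraries (grey squares), at E12.5 (left) and E14.5 (right), with replicate 1 as a solid and replicate 2 as a dashed line. The coloured points lie below the grey points of the same replicate in every bin, for example at 47.4 and 51.2 against 78.7 and 80.1 in the widest bin at E14.5.

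Strong peaks were rare among the 339 regions at E12.5 and common at E14.5. A −log10 q of at least 10 was reached by 2 regions in E12.5 replicate 1 and 43 in replicate 2, and by 246 and 240 at E14.5. Over the whole lists, 13.0% and 47.6% of peaks at E12.5 and 73.8% and 67.7% at E14.5 had such a value. A rise between stages was thus general to the lists. Of the 9903 other regions called in all 4 embryonic libraries, 1426 and 6373 had it at E12.5, and 9814 and 9801 at E14.5. Embryo-only regions reached it less often than these others in each library. In all 4 libraries a −log10 q of at least 10 was reached by 2 embryo-only regions, named because of these values. The first, on chromosome 2 from 168590564 to 168593087, had a −log10 q of 10.3 and 17.9 at E12.5 and 33.6 and 33.1 at E14.5. The other, on chromosome 10 from 4423726 to 4425624, had 10.9 and 14.8 at E12.5 and 45.4 and 41.1 at E14.5. Its peaks were 1725 and 1629 bp long at E12.5, then 1738 and 1899 bp, and it was the strongest embryo-only peak of E12.5 replicate 1. At the other end, 5 regions stayed under a −log10 q of 5 in all 4 libraries. They lay on chromosome 1 (starting at 5578506 and at 191225742), chromosome 7 (52346862), chromosome 16 (11983792) and chromosome 18 (58995771).

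The widest embryo-only region by mean over the 4 libraries lay on chromosome 5 from 143721701 to 143725413. Covered length was 2831 and 2574 bp at E12.5 (replicates 1 and 2), then 3713 and 3651 bp. Its peak ranked 235 of 11111 and 450 of 13693 by width at E12.5, and 386 of 16225 and 431 of 17658 at E14.5. Both E14.5 values were above both E12.5 values, and the rank was in the widest 3.29% of every list. The chromosome 16 region (74409933 to 74413453) had 2333 and 2504 bp at E12.5 and then 3521 and 3436 bp, likewise with no overlap between the stages. After the scaling used for the test below, which removes the general lengthening of the lists, both regions had a log2 change below 0 (-0.24 ± 0.15 SE and -0.17 ± 0.08) that did not pass it (limma adjusted p = 0.315 and 0.221). The nearest region with any adult peak was 23374 bp away for the chromosome 5 region.

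The chromosome 14 region (117324140 to 117327559) had 3043 and 2771 bp at E12.5 and then 2807 and 3145 bp, so that the stages overlapped. It was the strongest embryo-only peak in 3 of the 4 libraries, with a −log10 q of 18.5 in E12.5 replicate 2 and of 61.9 and 56.8 at E14.5, and a fold enrichment of 12.4 and 17.2 at E14.5. The regions on chromosomes 5, 14 and 16 were the 3 whose peaks were in the widest 10% of all 4 lists.

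Another 3 of the 12 widest regions were broken or narrow at E12.5 and continuous at E14.5. The chromosome 6 region from 92890490 to 92894084 had 2 peaks in each E12.5 library, together 2198 and 1084 bp, and a single peak of 3477 and 3462 bp at E14.5. The chromosome 11 region from 31268258 to 31271806 had 702 bp and, in 2 peaks, 1940 bp at E12.5, and then 3501 and 3500 bp. On chromosome 1, the region from 69151991 to 69155225 had 643 bp in 2 peaks in E12.5 replicate 1 and 2568 bp in 1 peak in replicate 2, and 2789 and 3202 bp at E14.5. In the chromosome 1 and chromosome 11 regions the 2 E12.5 libraries thus differed widely, and in none of the 3 did the change pass the test described below (limma adjusted p = 0.628, 0.27 and 0.525 for chromosomes 1, 11 and 6). The change in these 3 regions rests on which E12.5 library is used. On chromosomes 1, 11 and 6 the log2 change was -0.35, 0.24 and 0.98 without E12.5 replicate 1, and 1.23, 1.34 and -0.15 without E12.5 replicate 2, so that the direction turned on chromosomes 1 and 6.

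Other wide regions were longer at E14.5 in both libraries. On chromosome 7, from 150479408 to 150482514, coverage was 1701 and 1450 bp at E12.5 and then 3095 and 3024 bp, with most of the added length on the low-coordinate side (1305 bp against 179 bp on the high side). On chromosome 3, from 45179960 to 45182818, it was 1404 and 2078 bp and then 2838 and 2798 bp. This region was wide and weak, with a −log10 q of 2.21 and 2.25 at E12.5 and 6.04 and 7.11 at E14.5. On chromosome 2, from 102289873 to 102292442, coverage was 2017 and 2014 bp and then 2570 and 2514 bp. After scaling the log2 change of these 3 regions was 0.24 ± 0.17 (SE), 0.02 ± 0.13 and -0.34 ± 0.10, and none passed the test (limma adjusted p = 0.378, 0.934 and 0.1).

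The remaining 3 of the 12 widest were shorter at E14.5 in both libraries. The chromosome 9 region from 110643111 to 110646677 had 3328 and 3534 bp at E12.5 and 2027 and 1936 bp at the later stage. By width its peak ranked 113 of 11111 and 115 of 13693 at E12.5, the best ranks of any embryo-only region there, and 3297 of 16225 and 3988 of 17658 at E14.5, in lists of other lengths. It was the only one of the 339 whose E14.5 peaks lay wholly inside both E12.5 peaks, with the low-coordinate edge drawn in (-1194.5 bp, where outward is positive). The chromosome 18 region from 16965541 to 16968380 went from 2791 and 2820 bp to 1690 and 1835 bp, again at the low side. The chromosome 10 region from 56096901 to 56099431 went from 2304 and 2311 bp to 2213 and 2245 bp, a small difference in unscaled bp that was larger than the spread of the duplicates.

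**Figure D4:**
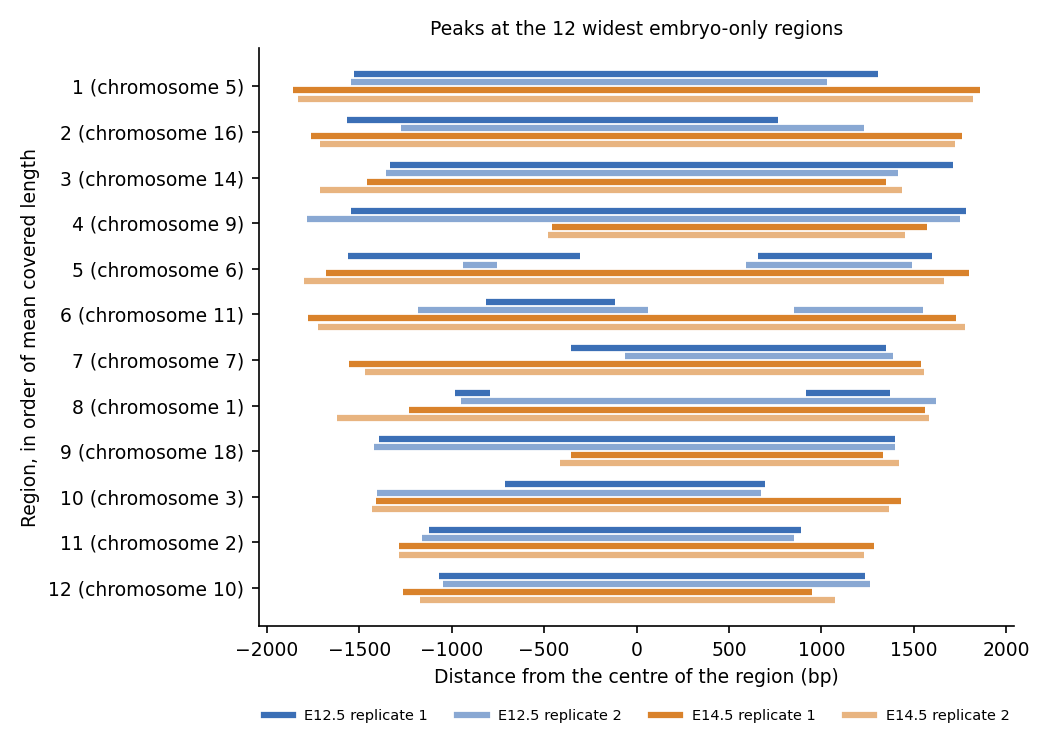
Peaks at the 12 widest embryo-only regions, in order of mean covered length, drawn as bars against the distance in bp from the centre of the region (horizontal axis), in blue for E12.5 and orange for E14.5, with replicate 1 dark and replicate 2 light. Region 4 (chromosome 9) and region 9 (chromosome 18) shorten at E14.5 from the left side, and regions 5, 6 and 8 (chromosomes 6, 11 and 1) are broken in at least 1 E12.5 library and continuous at E14.5.

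Since regions are built from overlapping peaks, the peaks of the 4 libraries mostly share bases by construction. The outer spans of all 4 did so in 335 of 339 regions, with a median shared length of 408 bp. The 4 exceptions lay on chromosome 3 (starting at 121044748), chromosome 7 (52346862) and chromosome 9 (36640004 and 39410181), and were named because of this. Centres moved by a median of 84.0 bp between stages, against 97.0 bp between the E12.5 replicates and 46.0 bp between the E14.5 replicates. In 269 regions the mean edge was further out at E14.5 on both sides, in 64 on a single side and in 6 on neither. In 168 regions both E12.5 spans lay inside both E14.5 spans. The median extension at E14.5 was 275 bp on the longer side and 92.0 bp on the shorter side.

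Whether the embryo-only regions changed in width from E12.5 to E14.5 is a contrast that the rule did not use. The rule does require a peak in all 4 embryonic libraries, so a region without a peak at E12.5 cannot be in the set. In unscaled bp, 272 of the 339 (80.2%) were longer at E14.5 with no overlap between the libraries of the stages, 11 (3.24%) were shorter with no overlap, and in 56 the stages overlapped. The background is high: 95.3% of the 15903 regions called in at least 2 embryonic libraries were longer in this sense and 0.428% were shorter. Among the 9903 other regions called in all 4 embryonic libraries, 95.6% were longer and 0.151% (15 regions) were shorter. Lengthening was therefore general to the lists. The embryo-only set held 11 of the 26 regions called in all 4 embryonic libraries that were shorter. The difference between these shares was not tested, since regions are not replicates. The order of the shares was the same with each embryonic library left out, where 3.84% to 12.7% of embryo-only regions and 0.212% to 1.76% of the others were shorter. Without E12.5 replicate 1 the number of shorter embryo-only regions was 43, and without E12.5 replicate 2 it was 17.

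The median ratio of E14.5 to E12.5 covered length was 1.60 for embryo-only regions and 1.59 for the others, but the ratio depends on width. Among regions of 1000 to 1500 bp it was 1.35 for the 70 embryo-only regions and 1.62 for 3370 others. It was 1.26 against 1.48 from 1500 to 2000 bp (31 and 2193 regions) and 1.26 against 1.42 at 2000 bp or more (21 and 1925 regions). Under 600 bp, the ratios were 1.99 and 2.01. In the widest bin, 4 of 21 embryo-only regions were shorter with no overlap, and 5 of 1925 others. These are descriptions over regions, which are not replicates.

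For the test, covered length was scaled per library to give equal medians over the regions shared by all 8 lists, and limma was fitted to log2(covered bp + 200) over the 4 embryonic libraries. On this scale the median log2 change was 0.01 for embryo-only regions and -0.01 for the others. Without scaling it was 0.56 and 0.59, so that a value below 0 on the fitted scale can belong to a region that is longer in bp. In scaled bp, 77 embryo-only regions (22.7%) were longer and 101 (29.8%) shorter with no overlap, against 46.6% and 21.6% of all 15903 tested regions and 26.3% and 32.4% of the 9903 others. At an adjusted p under 0.05, 8 embryo-only regions were longer at E14.5 (2.36%) and 25 shorter (7.37%). The background over all 15903 regions was 22.2% longer and 3.04% shorter, and over the 9903 others called in all 4 embryonic libraries it was 3.67% and 4.28%. The 15903 include regions without a peak in some embryonic libraries, which the rule keeps out, so the shares of the 9903 are the closer comparison. Of the 25 called shorter, 12 had a higher unscaled mean at E14.5, and 10 were shorter in unscaled bp with no overlap. All 8 called longer were longer in unscaled bp with no overlap.

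These calls lean on regions outside the set. When only the 10578 regions called in all 4 embryonic libraries were tested, no embryo-only region passed (limma, lowest adjusted p = 0.059), although 35 longer (10.3%) and 56 shorter (16.5%) had an unadjusted p under 0.05. At that p, 1267 and 1317 of all 10578 regions were longer and shorter. With 1 library left out, the spread comes from the duplicates of the other stage. Without E14.5 replicate 1, the median log2 change was 0.002 for embryo-only regions and -0.014 for the others called in all 4 embryonic libraries. Without E14.5 replicate 2 it was 0.005 and -0.017. Without E12.5 replicate 1 it was -0.112 and -0.026, and without E12.5 replicate 2 it was 0.082 and -0.026. The embryo-only median thus lay below or above that of the others depending on which E12.5 library was left out. The calls given below for single regions thus hold only with the wider set of tested regions.

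**Figure D5:**
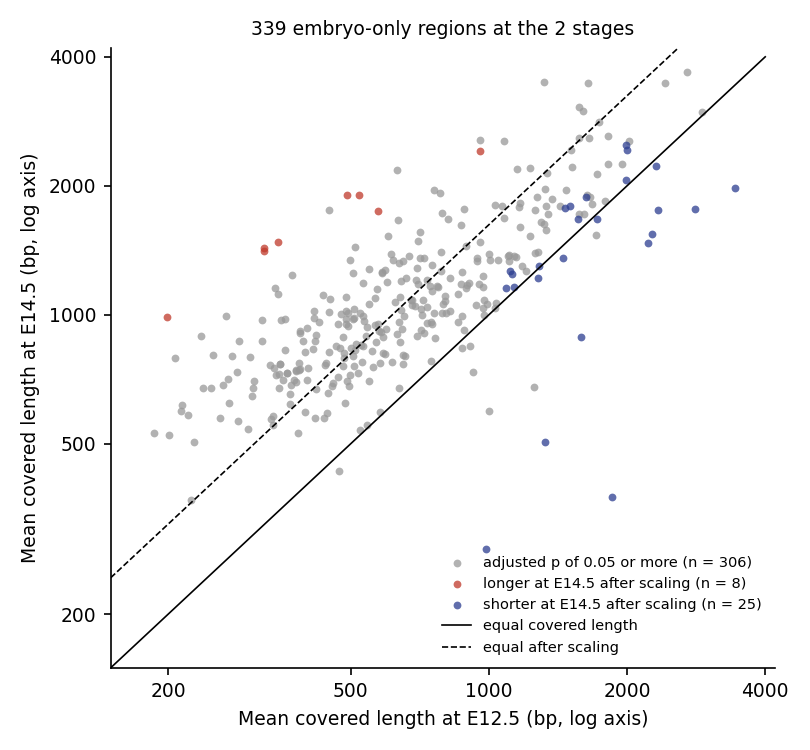
Mean covered length in bp of the 339 embryo-only regions at E12.5 (horizontal) and E14.5 (vertical), both on log axes, n = 2 libraries per stage, with the 8 regions called longer in red, the 25 called shorter in blue and the others in grey. The solid line marks equal length and the dashed line equal length after scaling. Most points lie above the solid line, and the blue points far below it include the regions of chromosomes 4 and 7 described in the text.

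Among the shortened regions, the largest change was on chromosome 4 from 142888969 to 142891107. Covered length was 1567 and 2139 bp at E12.5 and then 326 and 424 bp, a mean of 1853 bp ± 404.5 (SD, n = 2) against 375 bp ± 69.3. The log2 change was -2.37 ± 0.16 (SE, limma adjusted p = 0.00249). Nearly all of the loss was at the high-coordinate side, where the edge was drawn in (-1394.5 bp). The peaks were weak, with a −log10 q of 1.49 and 4.69 at E12.5 (percentiles 3.12 and 28.5) and 4.26 and 5.65 at E14.5 (12.9 and 23.3).

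The losses next in size were both on chromosome 7. The region from 4498229 to 4499375 had 941 and 1032 bp at E12.5 and then 348 and 221 bp (log2 change -1.80 ± 0.22, limma adjusted p = 0.0122). The region from 6647653 to 6649275 went from 1062 and 1588 bp to 507 and 501 bp (log2 change -1.65 ± 0.17, limma adjusted p = 0.008). The wide chromosome 9 region from 110643111 had a log2 change of -1.39 ± 0.08 (limma adjusted p = 0.00205) with a mean of 3431 bp ± 146 (SD, n = 2) at the earlier stage and 1981.5 bp ± 64.3 at the later. On chromosome 6, the region from 122690834 to 122692711 went from 1438 and 1742 bp to 981 and 791 bp (log2 change -1.32 ± 0.13, limma adjusted p = 0.00672). In all 5 of these regions the stages did not overlap in unscaled bp. Peak strength varied among them. The −log10 q was 1.44 and 2.75 at E12.5 and then 6.02 and 1.93 for the chromosome 7 region from 4498229. For the one from 6647653 it was 2.67 and 4.95 and then 11.5 and 17.5. It was 6.37 and 13.0 and then 31.9 and 26.6 on chromosome 9, and 3.74 and 4.54 and then 5.92 and 6.40 on chromosome 6. The wide regions on chromosomes 18 and 10 passed as well, with log2 changes of -1.26 ± 0.10 (limma adjusted p = 0.0037) and -0.69 ± 0.10 (0.0176). The chromosome 10 value rests on the scaling, since without it the log2 change was -0.05 (adjusted p = 0.445).

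With an E14.5 library left out, that stage has a single library and is assumed to vary like the E12.5 duplicates, and several calls were lost while the changes stayed about as large. Without E14.5 replicate 1, the log2 change was -1.98 (limma adjusted p = 0.13) and -1.66 (0.106) for the chromosome 7 regions starting at 4498229 and 6647653, -1.22 (0.075) on chromosome 18 and -0.70 (0.192) on chromosome 10. Without E14.5 replicate 2, the same 4 regions had -1.62, -1.63, -1.30 and -0.69 (0.134, 0.108, 0.0654 and 0.194), and the chromosome 9 region had -1.34 (0.0526). The regions of chromosomes 4 and 6 passed in both cases.

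The 5 regions named here for their lengthening had short peaks at E12.5. On chromosome 9, from 39410181 to 39411966, coverage was 266 and 381 bp at E12.5 and then 1501 and 1363 bp (log2 change 1.12 ± 0.17, limma adjusted p = 0.0233). The E12.5 peaks of the replicates did not overlap each other (39410880 to 39411145 in replicate 1, 39410181 to 39410561 in replicate 2). Their −log10 q was 2.77 and 1.51. The side of growth thus depends on the replicate, and both E14.5 peaks ended at 39411966, beyond both E12.5 peaks. On chromosome 5, from 72091179 to 72092733, coverage was 253 and 441 bp and then 1555 and 1402 bp (log2 change 1.11 ± 0.21, limma adjusted p = 0.0408). This call turned with the strongest 11111 peaks of each list, where the log2 change was -1.66 (adjusted p = 0.0435). On chromosome 6, from 136122097 to 136123573, it was 297 and 350 bp and then 1422 and 1397 bp (log2 change 1.1 ± 0.15, limma adjusted p = 0.0163).

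On chromosome 4 there were 2 such regions. The one from 134107437 to 134108468 went from 230 and 167 bp to 1032 and 947 bp, which at 4.99-fold was the largest ratio of the 339 (log2 change 1.11 ± 0.23, limma adjusted p = 0.049). The one from 153398791 to 153400719 went from 358 and 625 bp to 1898 and 1917 bp, with growth on both sides (log2 change 1.07 ± 0.19, limma adjusted p = 0.0354). Stages did not overlap in any of the 5. With an E14.5 library left out the log2 changes stayed between 1.04 and 1.2, but the spread came from the E12.5 duplicates alone and none of the 5 passed (adjusted p from 0.32 to 0.436). With quantile normalization and with a replicate block the chromosome 4 region from 153398791 still passed and the other 4 did not. Under quantile normalization the log2 change of the chromosome 4 region from 134107437 was 0.22 (adjusted p = 0.714).

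Embryo-only regions lay in sparser surroundings than other embryonic regions. The nearest other region called in all 4 embryonic libraries was a median of 116464 bp away, against 38773 bp for the 9903 others. This neighbour was chosen by embryonic calls alone, but the distance still depends on the adult lists. Regions were joined over all lists, so adult peaks can set their edges or bridge them. The embryo-only set was also selected on adult calls. Within 50000 bp of such a neighbour lay 28.9% of embryo-only regions and 58.5% of the others. The difference was also present among the shortest regions, up to 757.75 bp, with medians of 89189 bp (137 regions) and 31936 bp (888 regions). For the 12 widest the median was 437333.5 bp and the range from 50745 to 1655432 bp. The nearest region with an adult peak was a median of 86542 bp away. One lay within 5000 bp of 24 embryo-only regions (7.08%), the closest at 539 bp, and another region with an adult peak lay that close to 15.2% of the 9903 others. The distances to adult peaks rest directly on the adult calls that the rule used, and all the distances given here are a description only.

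Their share of the embryonic regions varied by chromosome from 1.16% on chromosome 19 (4 of 346) to 5.50% on chromosome 1 (33 of 600). Chromosome 7 held the most, 40 of 760 (5.26%), and chromosome 11, with 839 regions, held 14 (1.67%). In 11 places, 2 or more embryo-only regions lay within 100000 bp of each other, 23 regions in all. Of these places, 4 were on chromosome 13. The widest spanned 95185 bp from 23503444 to 23598628 and held 2 embryo-only regions among 13 others, 9 of them with an adult peak. There, the region from 23503444 to 23505440 was covered over 1004, 759, 1534 and 1997 bp in the 4 libraries in order, and the one from 23597558 to 23598628 over 225, 248, 761 and 1025 bp. Also on chromosome 13, 3 embryo-only regions lay between 21307400 and 21352240. Each was longer at E14.5 in both libraries in unscaled bp, as were 95.6% of the 9903 others called in all 4 embryonic libraries. After scaling their log2 changes were 0.50, 0.05 and -0.33, and none passed (limma adjusted p = 0.114, 0.871 and 0.0706).

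The next widest places held no other region of any list. On chromosome 14, 2 embryo-only regions lay between 64054921 and 64128065, covered over 190, 307, 681 and 669 bp and over 822, 1122, 795 and 1276 bp. On chromosome 1, 2 lay between 191166590 and 191226564, covered over 824, 1122, 1239 and 1083 bp and over 544, 426, 822 and 424 bp. On chromosome 4, the region from 142888969, which shortened, had a neighbour from 142939505 to 142940476 that had 515 and 659 bp at E12.5 and then 972 and 799 bp. The stages thus differed in opposite directions, without overlap, at 2 embryo-only regions less than 100000 bp apart. After scaling, the neighbour had a log2 change of -0.08 ± 0.17 (SE, limma adjusted p = 0.759), so this opposition holds only in unscaled bp.

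The edge of the set was set by 2 libraries in particular. The 3 shortest embryo-only regions were on chromosome 1 from 132774792 to 132775184 (242, 208, 374 and 367 bp in the 4 libraries in order), chromosome 10 from 78784796 to 78785347 (192, 181, 552 and 508 bp) and chromosome 9 from 47970052 to 47970610 (211, 191, 549 and 500 bp). Just outside the rule, 160 autosomal regions were called in all 4 embryonic libraries and a single adult one, which was ISC replicate 2 in 136, enterocyte replicate 2 in 19, ISC replicate 1 in 5 and enterocyte replicate 1 in 0. ISC replicate 2 was the most deeply sequenced adult library, with 25547814 tags. A further 479 regions were called in 3 embryonic libraries and no adult one, and 455 of these lacked only a peak in E12.5 replicate 1, the shallowest embryonic library. Without E12.5 replicate 1 the set would hold 794 regions, all of the 339 among them, and without ISC replicate 2 it would hold 475.

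The 3 widest regions with a single adult call were wider than any embryo-only region, although the class as a whole was of near equal width. Its 160 regions had a median of the mean covered length of 904.88 bp, against 866.5 bp for the 339. On chromosome 11, from 95862240 to 95869647, coverage was 4872, 4997, 7408 and 6673 bp in the 4 embryonic libraries and 328 bp in enterocyte replicate 2. The regions on chromosome 12 from 28022837 to 28028886 (5629, 5717, 5842 and 6050 bp) and on chromosome 9 from 114467907 to 114474109 (4604, 4323, 6087 and 6190 bp) had 813 and 1059 bp in ISC replicate 2. On the other side, a region on chromosome 18 from 86879399 to 86883765 had no peak in E12.5 replicate 1 and was covered over 1213, 3983 and 3636 bp in the other 3 embryonic libraries. On chromosome 15, the region from 11833095 to 11837228 likewise had 640, 3688 and 4134 bp, and on chromosome 6, the one from 63205837 to 63208287 had 1968, 1993 and 2451 bp. The 3 regions with a short adult peak were thus longer in every embryonic library than any of the 339.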

How the data were processed

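The authors deposited a list of H3K4me3 peaks for each library, with replicates kept apart. MACS 2.0.10.20130712 was run for broad peaks, per the file headers, at a q of 0.01 against 1 input per group, on tags of 51 bp. Alignment used mm9, and Bowtie 1.1.2, SAMtools 1.2 and bcl2fastq 1.8.4 are listed by the submitters' processing notes. The deposited columns give position and length, pileup signal, −log10 p-value and −log10 q-value, and enrichment over input as a fold ratio. All are the authors' own values and serve here only within a list. The lowest −log10 q was 1.01, a looser limit than the q in the headers.

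Peaks were joined where they shared at least 1 bp or touched. Covered length is the bp of a region under a library's peaks, and the rank of a region is that of its widest peak. E14.5 was tested against E12.5 with limma 3.58.1 in R 4.3.3 (trended prior, 2 residual degrees of freedom, two-sided, Benjamini-Hochberg over all tested regions). The adult libraries stayed out of the fit because embryo-only regions have 0 bp there, with no spread. Scaling factors were 0.72 and 0.84 at E12.5 and 1.25 and 1.28 at E14.5. The step was tested on simulated data. With 2 libraries per stage, p-values measure the spread between these duplicates only.

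The text names the 12 widest regions, the 5 with the largest called change in each direction with no overlap between the stages, the 3 shortest, the 3 widest of each kind just outside the rule, and the 3 widest places with neighbouring embryo-only regions. Others were chosen for their values. The regions and lists were chosen with earlier results of these data known. Neither a genome nor an annotation of mm9 was used here, nor were the input libraries' own files. Alternatives were other pseudocounts, scalings, filters, list lengths and overlap rules, all 8 libraries, a replicate block, and each library left out.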

Additional observations from a re-analysis of the deposited data

How the results depend on the processing

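The rule gave 12 regions when peaks needed a −log10 q of at least 10, of which 2 overlapped one of the 339, and 445 with the strongest 11111 peaks of each list, of which 151 did. It gave 339 to 794 with 1 library left out (794 without E12.5 replicate 1, 475 without ISC replicate 2). The median covered length, 640 and 1031 bp at E12.5 and E14.5, was 856.5 and 1307.5 bp over those 445, a largely different set, and 851.5 to 1073 bp at E14.5 with 1 library left out. Against 8 longer and 25 shorter limma calls, the counts were 88 and 9 with no scaling (26% and 2.65%, against 61.1% and 0.233% of all tested regions), 3 and 15 with quantile normalization (all tested regions 3.42% and 0.635%), 0 and 0 when only regions called in all 4 embryonic libraries were tested (0.0189% and 0%), 17 and 9 with all 8 libraries (17.9% and 2.33%), and 0 and 53 with lists of equal number (4.61% and 1.59%). They ranged from 0 to 97 and from 4 to 71 with 1 embryonic library left out. The labels do not say whether same-numbered libraries were handled together. Their deviations had a correlation of 0.05 across regions, which cannot exclude it. A replicate block gave 3 and 15 calls (all tested regions 21.9% and 0.912%, the others called in all 4 embryonic libraries 2.09% and 0.98%). Regions shorter in unscaled bp with no overlap numbered 13 to 43 with 1 library left out, an alternative chosen after seeing the data. Where the cause is not in the construction of the alternative, the cause was not tested.

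Some named regions changed the sign of their log2 change. With no scaling, the regions of chromosome 5 (from 143721701), 16, 14 and 2 had 0.42, 0.49, 0.031 and 0.31. With lists of equal number it was -3.34 on chromosome 6 (92890490), -1.66 on chromosome 5 (72091179, adjusted p = 0.0435), -1.20 on chromosome 9 (47970052) and -1.29 on chromosome 1 (132774792). In each of these regions the peaks of both E14.5 libraries are among those cut from the longer lists, so these values show no shortening. Quantile normalization gave -0.75 on chromosome 9 (47970052), -0.72 on chromosome 10 (78784796) and -0.96 on chromosome 1 (132774792). Scaling by total covered bp gave -0.15 on chromosome 3 (45179960) and -0.10 on chromosome 1 (132774792). With 1 library left out the ranges were -0.15 to 0.98 on chromosome 6 (92890490), -0.35 to 1.23 on chromosome 1 (69151991), -0.14 to 0.18 on chromosome 3 (45179960) and -0.12 to 0.14 on chromosome 1 (132774792).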

Other observations

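The rule kept to autosomes. On the X chromosome, 335 regions were called in all 4 embryonic libraries, and 26 of them were called in no adult library. The adult animals were males and the sex of the embryos is not given in the labels, so stage and sex cannot be told apart there.

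Replicates of E12.5 differed more at embryo-only regions than those of E14.5. Replicate 2 was longer in 260 of 339 regions (76.7%) at E12.5, with a median ratio of 1.32, and 76 regions (22.4%) differed by more than 2-fold. At E14.5 the median ratio was 1.01 and 2 regions differed by more than 2-fold. Over the 9903 other regions called in all 4 embryonic libraries, replicate 2 was longer in 72.2% at E12.5, the median ratio was 1.13 there and 1.02 at E14.5, and 8.02% and 0.162% differed by more than 2-fold.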
